A study of Mus musculus with 6 samples.

Results

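The nitric oxide synthases and the enzymes that make and recycle their cofactor tetrahydrobiopterin were followed through mouse heart transplants. They were chosen by name: Nos1, Nos2, Nos3, Gch1, Gchfr, Pts, Spr, Qdpr and Pcbd1. Of these 9 genes, 8 had a probe set of their own, in all 11 of the 20380 probe sets assigned to a single gene. Gchfr was not analysed here. Total RNA was hybridised to 6 oligonucleotide arrays, 1 for each group. The untreated syngraft was a syngeneic control and the untreated allograft an allogeneic one. The remaining groups were allografts from treated mice. BH4 (tetrahydrobiopterin) and ABH4 (4-amino tetrahydrobiopterin) were each given at 50 mg/kg at 8 h intervals, NIL (N-imino ethyl-L-lysine) at 5 mg/kg at 8 h intervals, and CsA (cyclosporin A) at 15 mg/kg at 24 h intervals. The sources used here do not give the strains, sex, age, day of graft removal or any pooling of grafts. No group had a replicate, so no difference below could be set against a spread between grafts, and no test was made. Because each graft is bulk tissue, fewer cells of a type and less RNA per cell cannot be told apart.

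Nitric oxide synthases turn arginine into citrulline and nitric oxide, and all of them need tetrahydrobiopterin to do so. Nos1 (neuronal type) and Nos3 (endothelial type) are present in the resting heart, whereas Nos2 (inducible type) is switched on by cytokines, most of all in macrophages. Gch1, GTP cyclohydrolase, makes the first and rate-limiting step from GTP towards the cofactor, Pts (6-pyruvoyl tetrahydropterin synthase) and Spr (sepiapterin reductase) complete it, and Pcbd1 and Qdpr regenerate it after use. BH4 is that cofactor, ABH4 its analog and antagonist, and NIL a synthase inhibitor with preference for the inducible type. CsA blocks calcineurin and so the activation of T cells.

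Gch1 was the enzyme of cofactor synthesis furthest above the syngraft in the untreated allograft, so the sequence before its start is shown. These 250 bases lie at chr14:47189414-47189663 on the minus strand of GRCm38.p6, as RefSeq gives them, and are printed 5′ to 3′ in the direction of transcription. Capitals mark the letters searched for on either strand.
Gch1 upstream: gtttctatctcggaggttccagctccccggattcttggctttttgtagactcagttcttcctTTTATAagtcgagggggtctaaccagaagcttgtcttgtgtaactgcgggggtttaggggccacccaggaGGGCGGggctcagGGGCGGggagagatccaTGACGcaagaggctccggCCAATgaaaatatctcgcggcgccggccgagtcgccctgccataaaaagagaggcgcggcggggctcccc
The window holds GGGCGG (the GC box) at -118 to -113 and at -105 to -100, TGACG (the core of a cyclic AMP response element) at -88 to -84, and CCAAT at -70 to -66, counted back from the start. It also holds TATAAA on the opposite strand at -188 to -183. Among 32851 upstream windows of the same length, GGGCGG was found in 32.7%, TGACG in 17.8%, CCAAT in 33.8% and TATAAA in 12.4%. GAAANNGAAA, an interferon regulatory factor type motif present in 2.98% of the windows, and TTCNNNGAA, a STAT type motif present in 7.02%, were searched for and are not among these letters. The motifs were searched one by one and those found here do not overlap.

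Signals were linear intensities set to a common median on each array. Values under 34.8, the 30th percentile of all signals, were treated as being at a floor, and a difference from an array at the floor is given as "at least". A difference of 1.5-fold, or 0.58 on the log2 scale, was the size used to call a probe set higher or lower. All 10 cardiomyocyte markers were above the floor on every array, as the label heart graft requires. The T cell markers, of which 7 of 9 had probe sets, summed to 106 in the syngraft and 197 with CsA against 1399 to 2018 on the other arrays, and all 7 were at the floor in the syngraft. Fibroblast markers were lower in 9 of 9 in the untreated allograft than in the syngraft (median -3.01), and above the untreated allograft in 9 of 9 with CsA, 9 of 9 with BH4, 8 of 9 with ABH4 and 0 of 9 with NIL. Of 9 skeletal muscle markers 2 were lower in the allograft than in the syngraft, and of 6 neutrophil markers 1 was higher and 3 were lower. Over all genes, 15.4% were higher and 11.9% lower in that comparison. Against the untreated allograft, 9.27% of all genes were higher with CsA, 4.89% with BH4, 3.19% with ABH4 and 6.36% with NIL. The BH4 array stands apart: the 6 measured salivary gland markers summed to 8053 there and to between 54.6 and 88.0 on the others, so each BH4 value below comes from a graft sample with transcripts of another tissue. Its part in those values was not tested.

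**Figure D1:**
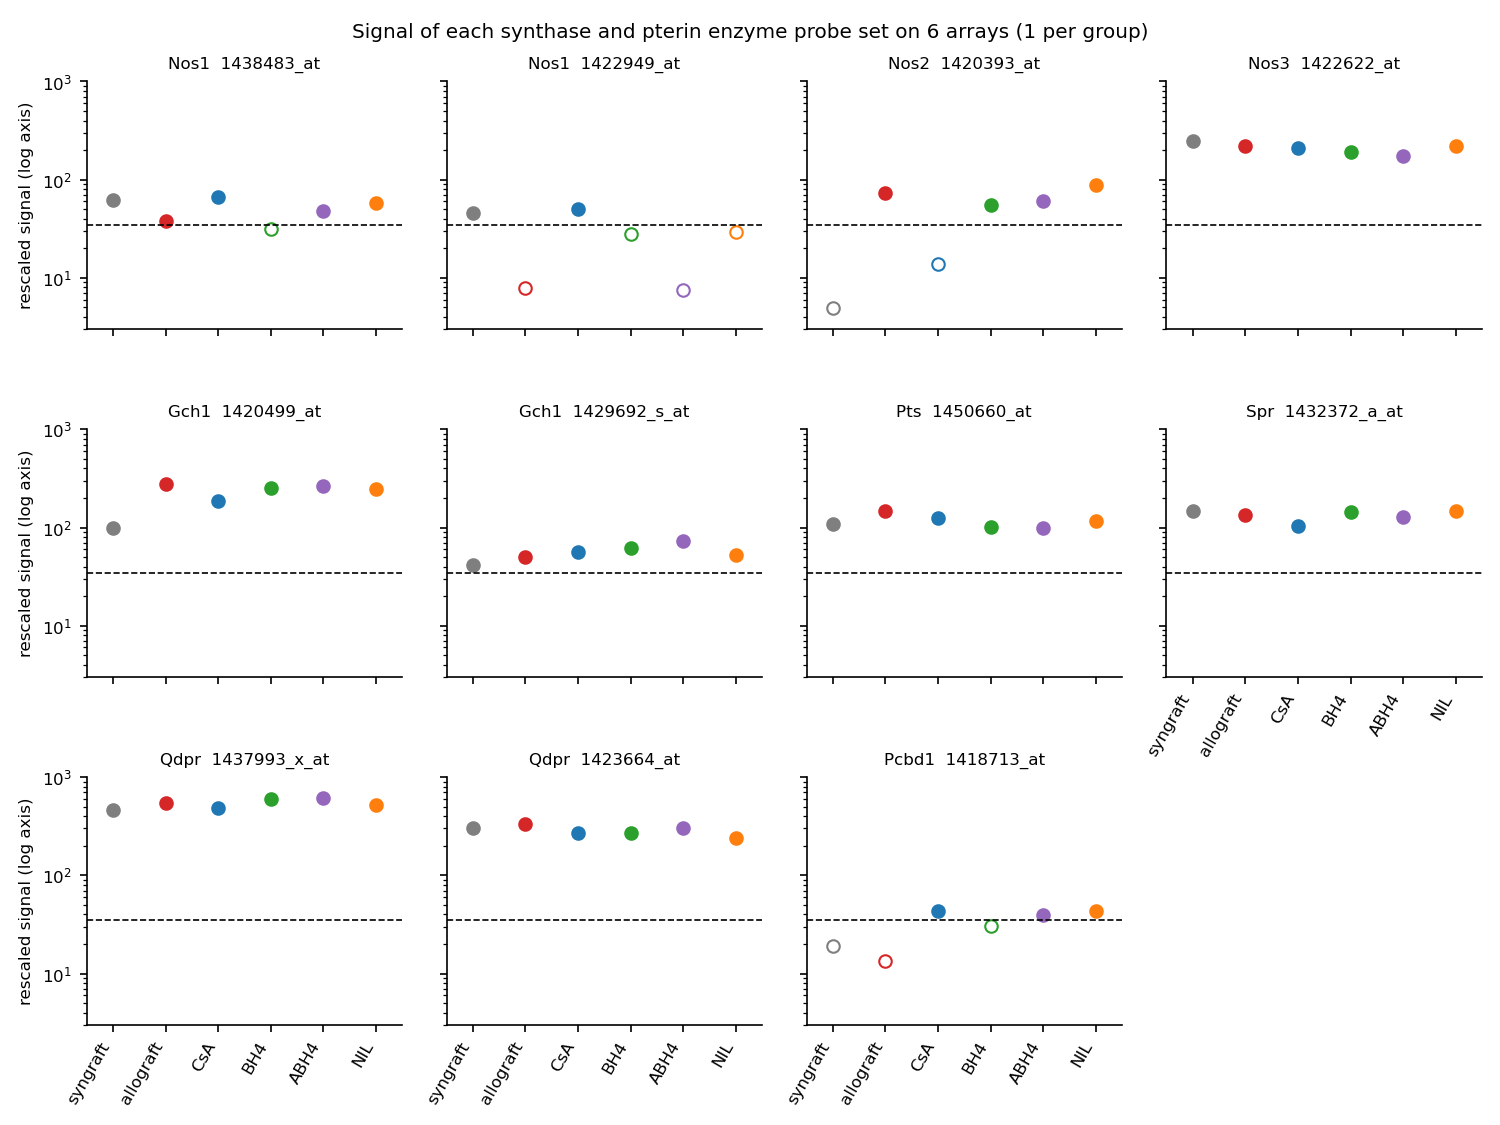
Rescaled signal (log axis) of the 11 probe sets on the 6 arrays, 1 point per array; the dashed line is the floor of 34.8 and open points lie at or below it. Nos2 stood above the floor on every array except the syngraft and CsA arrays, Nos1 was dimmer in the untreated allograft than in the syngraft, and Nos3 stayed between 174 and 246.

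Nos2, the inducible synthase, was measured by 1 probe set (1420393_at). Its signal was 4.89 in the syngraft and 13.8 with CsA, both below the floor. It was 73.2 in the untreated allograft, 54.7 with BH4, 61.3 with ABH4 and 88.0 with NIL. The 4 arrays above the floor were the allografts without CsA, and the highest was the one treated with the inhibitor NIL. The untreated allograft was at least 2.10-fold above the syngraft, and CsA at least 2.10-fold below the untreated allograft. On the log2 scale these bounds were 1.07 and -1.07. Lowering the floor to the 10th percentile made them at least 3.50 and a measured -2.40. A higher floor, at the 50th percentile (83.3), left them unmeasured, because Nos2 was then at the floor on every array except NIL. Relative to the untreated allograft, NIL was 1.20-fold higher, ABH4 1.19-fold lower and BH4 1.34-fold lower.

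Nos1, the neuronal type synthase, had 2 probe sets and ran the other way. On 1438483_at its signal was 62.3 in the syngraft, 37.8 in the untreated allograft, 67.2 with CsA, 31.5 with BH4, 47.9 with ABH4 and 57.9 with NIL. The syngraft and CsA arrays were thus highest, and the BH4 array fell below the floor. On 1422949_at the signal was 46.2 in the syngraft and 50.5 with CsA. The other 4 arrays were below the floor there, at 7.93 in the untreated allograft, 28.1 with BH4, 7.56 with ABH4 and 29.6 with NIL. On both probe sets the CsA array was therefore the highest and the syngraft array came next. The untreated allograft was 1.65-fold below the syngraft on 1438483_at and at least 1.33-fold below on 1422949_at. CsA was 1.78-fold and at least 1.45-fold above the untreated allograft, and NIL was 1.53-fold above it on 1438483_at. With quantile normalization the syngraft and NIL differences of 1438483_at went from -0.72 to -0.57 and from 0.61 to 0.47 on the log2 scale, short of 1.5-fold. Of 7 neuronal and Schwann cell markers with a probe set, the neuronal genes Snap25, Nefl and Nefm were at the floor on all 6 arrays. The 7 summed to 280 in the syngraft, 566 in the untreated allograft, 476 with CsA and 577 to 689 on the other arrays. Tubb3, a neuronal tubulin, made up most of the sum on the allograft arrays, with 434 in the untreated allograft against 21.1 in the syngraft. Dbh, the noradrenaline enzyme of sympathetic nerves, went the way of Nos1 instead, with signals of 157 in the syngraft, 74.4 in the untreated allograft, 138 with CsA, 78.1 with BH4, 87.7 with ABH4 and 144 with NIL. S100b, a Schwann cell marker, was above the floor only in the syngraft (38.4). Tubb3, Dbh and S100b were singled out after their values were seen, and the part of nerve transcripts in the Nos1 values was not tested.

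Nos3, the endothelial synthase (1422622_at), was above the floor throughout. Its signal was 246 in the syngraft, 221 in the untreated allograft, 209 with CsA, 190 with BH4, 174 with ABH4 and 218 with NIL, a span of 1.41-fold. No comparison reached 1.5-fold, and the furthest was ABH4, 1.27-fold below the untreated allograft. The direction for CsA and NIL turned with the scaling: -0.08 and -0.02 became 0.11 and 0.13 without rescaling and 0.08 and 0.11 with quantile normalization. The 10 endothelial markers summed to 3420 in the syngraft, 2177 in the untreated allograft, 2883 with CsA and 2234 to 2442 on the other arrays. Between allograft and syngraft 5 of these 10 were at least 1.5-fold lower and 0 higher, with a median of -0.65, whereas Nos3 differed by -0.15. Over all genes, 11.9% were that far lower and 15.4% that far higher. Whether the marker shift has a part in the Nos3 values was not tested.

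Gch1, the rate-limiting enzyme, had 2 probe sets that did not tell the same story. On the brighter one, 1420499_at, the signal was 99.2 in the syngraft, 279 in the untreated allograft, 185 with CsA, 256 with BH4, 263 with ABH4 and 249 with NIL. Every allograft was above the syngraft, with the CsA array between the syngraft and the other allografts. The untreated allograft was 2.81-fold above the syngraft, and 2.66% of all single-gene probe sets were at least as far up in that comparison. CsA was 1.51-fold below the untreated allograft, which is only just past 1.5-fold. Without rescaling the CsA difference was -0.41 and with quantile normalization -0.42, against -0.59, and it no longer passed. BH4, ABH4 and NIL were 1.09-fold, 1.06-fold and 1.12-fold below the untreated allograft.

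On the dimmer Gch1 probe set, 1429692_s_at, the signal was 41.4 in the syngraft, 50.2 in the untreated allograft, 55.8 with CsA, 62.3 with BH4, 73.7 with ABH4 and 52.6 with NIL. The syngraft was again lowest, but here the untreated allograft was the lowest of the allografts and ABH4 the highest. The untreated allograft was 1.21-fold above the syngraft. All 4 treated arrays were above the untreated allograft: ABH4 by 1.47-fold, BH4 by 1.24-fold, CsA by 1.11-fold and NIL by 1.05-fold. The ABH4 difference of 0.56 was 0.61 on the deposited values, past 1.5-fold, and 0.48 after quantile normalization. The NIL difference of 0.07 turned to -0.06 after quantile normalization. The suffix _s_at marks, in this array design, probes shared between transcripts, and the annotation lists only Gch1 for it. In any 1 treatment such a split was not rare on these arrays. Among 4956 genes with 2 or more probe sets, the brightest 2 differed in sign in 31.9% of those measurable with CsA, 39.5% with BH4, 39.1% with ABH4 and 37.5% with NIL, all against the untreated allograft. They differed in sign in all 4 treatments, as for Gch1, in 153 (3.09%) of all 4956 genes, including those not measurable in each treatment. With a signal this near the floor, the direction of Gch1 under all 4 treatments depended on the probe set read. With NIL it did not after quantile normalization, where both differences were below 0 (-0.0074 and -0.06). The syngraft was lowest on both probe sets. On the dimmer one it was below the untreated allograft by 0.28 on the log2 scale and by 0.09 on the deposited values. With the floor at the 50th percentile both of these arrays were at the floor there.

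Pts, which acts after Gch1, had signals of 110 in the syngraft, 146 in the untreated allograft, 126 with CsA, 101 with BH4, 99.7 with ABH4 and 117 with NIL (1450660_at). The untreated allograft was highest and both pteridine arrays were lowest. BH4 and ABH4 were 1.44-fold and 1.46-fold below the untreated allograft, the furthest down of any member in those comparisons and just short of 1.5-fold. At least as far down were 5.08% of all single-gene probe sets with BH4 and 3.07% with ABH4. The untreated allograft was 1.33-fold above the syngraft. Spr, the last enzyme of synthesis, had signals of 148 in the syngraft, 134 in the untreated allograft, 103 with CsA, 142 with BH4, 129 with ABH4 and 149 with NIL (1432372_a_at). CsA was the lowest, 1.30-fold below the untreated allograft, and the other 5 arrays lay between 129 and 149.

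Qdpr, dihydropteridine reductase, which returns the oxidised cofactor to its active form, was measured by 2 probe sets. On 1437993_x_at the signal was 458 in the syngraft, 543 in the untreated allograft, 482 with CsA, 603 with BH4, 611 with ABH4 and 522 with NIL. On 1423664_at it was 303 in the syngraft, 336 in the untreated allograft, 268 with CsA, 273 with BH4, 303 with ABH4 and 237 with NIL. The pteridine arrays were the highest on the former and below the untreated allograft on the latter, so the signs again differed, by 0.15 and -0.30 for BH4 and by 0.17 and -0.15 for ABH4. The furthest difference was NIL on 1423664_at, 1.42-fold lower. The allograft difference from the syngraft was 0.25 and 0.15 and turned to -0.01 and -0.08 after quantile normalization, and the latter to -0.04 on the deposited values. On 1437993_x_at, the CsA and NIL differences of -0.17 and -0.06 turned to 0.01 and 0.09 on the deposited values, and to 0.06 and 0.13 after quantile normalization. Pcbd1, the dehydratase that works with Qdpr, was near the floor (1418713_at). Its signal was 18.9 in the syngraft, 13.5 in the untreated allograft and 30.2 with BH4, all below the floor, and 43.3 with CsA, 39.4 with ABH4 and 43.4 with NIL. CsA, ABH4 and NIL were at least 1.25-fold, 1.13-fold and 1.25-fold above the untreated allograft.

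**Figure D2:**
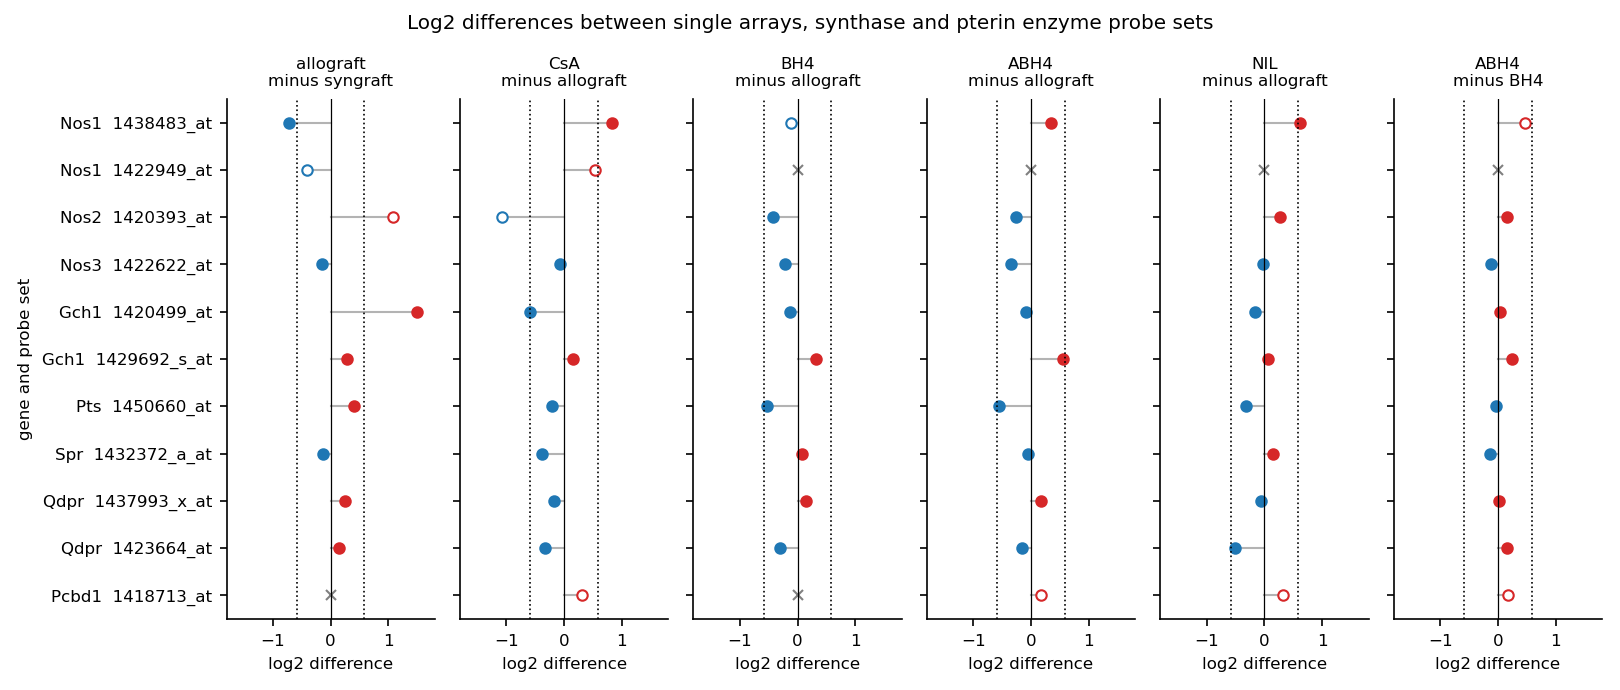
Log2 difference of each of the 11 probe sets in the 6 comparisons of single arrays; red is higher and blue lower in the array named first, open points are lower bounds with 1 array at the floor, crosses have both arrays at the floor, and dotted lines mark 1.5-fold. Gch1 1420499_at lies at 1.49 for allograft against syngraft, and the 2 Gch1 probe sets lie on opposite sides of 0 in all 4 treatments (with NIL not after quantile normalization).

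Counted over the 11 probe sets, the untreated allograft was at least 1.5-fold above the syngraft in 2 (Nos2 and Gch1) and below it in 1 (Nos1). Among all 20380 single-gene probe sets, 14.6% were that far above and 11.0% that far below. The members' shares were thus close to those of all probe sets, and the median over the 8 genes was 0.12 (-0.0048 with quantile normalization), against 0.00 over all 12393 genes. With CsA, 1 probe set was higher (Nos1) and 2 were lower (Nos2 and Gch1) than in the untreated allograft, the same 3 probe sets in the opposite direction. The background was 8.14% higher and 12.0% lower. The members' median was -0.19, but -0.0048 without rescaling and -0.03 with quantile normalization. These comparisons share the untreated allograft array, so a low or high value on it moves both.

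With BH4 0 of 11 probe sets passed 1.5-fold in either direction against the untreated allograft, where 4.46% of all probe sets were higher and 3.78% lower. Only 8 of these 11 differences were measured on both arrays. Nos1 1422949_at and Pcbd1 were at the floor on both, and with the floor at the 10th percentile BH4 was higher by 1.83 and 1.16. With ABH4 0 of 11 passed, where 3.08% were higher and 2.55% lower, and 9 differences were measured. Pcbd1, a lower bound here, was higher by 1.55 with the lower floor, and the dimmer Gch1 probe set was higher by 0.61 without rescaling, past 1.5-fold. With NIL 1 probe set, Nos1 1438483_at, was higher and 0 were lower, against 5.55% and 6.44% of all probe sets, and 9 differences were measured. With the lower floor Nos1 1422949_at and Pcbd1 were higher by 1.90 and 1.69 with NIL. The medians over the 8 genes were -0.12, -0.07 and 0.06. Shares this small amount to less than 1 of 11 probe sets in each direction, so counts of 0 and 1 are near the background. In the deposited values the array medians differed by -0.19 between allograft and syngraft, and by 0.19 for CsA and 0.15 for NIL against the untreated allograft. The rescaling removed these shifts.

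ABH4 and BH4 were given at the same dose and interval and differ in structure by an amino group in place of the oxygen on the pterin ring. This was the 1 pair of related compounds, and with 1 array each no interval of a difference can be given. Of the 11 probe sets 0 passed 1.5-fold between them, where 3.65% of all probe sets were higher with ABH4 and 3.92% lower, but only 8 of the 11 differences were measured on both arrays. With the floor at the 10th percentile, the Nos1 probe sets passed in opposite directions, at 0.61 on 1438483_at and -1.90 on 1422949_at. Nos2 was 1.12-fold higher with ABH4 and Nos3 1.09-fold lower. Gch1 was 1.03-fold and 1.18-fold higher on its 2 probe sets, and Spr was 1.10-fold lower. Nos1 was at least 1.38-fold higher with ABH4 on 1438483_at, the furthest of the members. Pts was 1.02-fold lower with ABH4, a difference of -0.02 that was 0.01 on the deposited values. A difference short of 1.5-fold between single arrays does not show that the compounds act alike.

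The search covered 5922 other genes above the floor on at least 4 arrays and spanning at least 1.5-fold. Those whose floored log2 signals over the 6 arrays most resembled a member were looked up. For Nos2 they were Slamf7, a receptor of cytotoxic lymphocytes and activated myeloid cells (r = 0.994), the mitochondrial ribosomal protein gene Mrps24 (r = 0.991) and Sash3, a lymphocyte signalling adaptor (r = 0.989). Slamf7 had signals of 44.6 in the syngraft, 108 in the untreated allograft, 42.3 with CsA, 83.1 with BH4, 99.9 with ABH4 and 154 with NIL. It was chosen for its likeness to Nos2, so its peak with NIL is not a separate result. For Gch1 (1420499_at) they were Trem3 (r = 0.998), Uba7 (r = 0.998) and Rbm7 (r = 0.997). Uba7, the activating enzyme of the interferon-induced modifier ISG15, had signals of 199, 1010, 504, 833, 814 and 813 in the same order. For Nos1 (1438483_at) they were Cd209f (r = 0.989), Mrtfb (r = 0.981) and Smg6 (r = 0.974), whose signals lay between 31.1 and 99.8. With 6 points that share the same arrays such values are common: 68 genes reached 0.95 with Nos2, 358 with Gch1 and 20 with Nos1. The r between Nos2 and Gch1 themselves was 0.776.

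The cytokines and factors known to induce Nos2 and Gch1 were mostly higher in the untreated allograft than in the syngraft and lower with CsA. Of 9 listed, 7 were measured, and between untreated allograft and syngraft 6 passed 1.5-fold upward and 0 downward (median 1.41). Over all 12393 genes, 15.4% were that far higher and 11.9% lower. Interferon-gamma (Ifng) was at least 16.8-fold and its target factor Irf1 5.43-fold higher. With CsA 5 of 7 were lower and 0 higher than in the untreated allograft (median -1.36), with Ifng 5.72-fold and interleukin 6 (Il6) 5.21-fold lower, against 9.27% of all genes higher and 12.2% lower. With BH4 3 of 7 were lower (median -0.55), with Il6 2.47-fold and interleukin 1 beta (Il1b) 1.77-fold lower, against 4.89% of all genes higher and 3.36% lower. With ABH4 and with NIL all 7 stayed within 1.5-fold (medians -0.08 and -0.27), against 3.19% of all genes higher and 2.49% lower with ABH4, and 6.36% and 5.32% with NIL. ABH4 exceeded BH4 by at least 1.5-fold in 3 of 7 (median 0.49), with Il6 2.33-fold and Ifng 1.84-fold higher, against 3.24% of all genes higher and 4.10% lower. Irf1 was still 1553 with CsA against 551 in the syngraft, and Gch1 on 1420499_at was likewise intermediate there. Nos2 was below the floor on both arrays (13.8 and 4.89), so whether it was intermediate too cannot be told. The inducers differed on the CsA array. Relative to the syngraft on the log2 scale, Irf1 was at 1.49 and Ifng at least 1.56, but Il6 was at 0.03 and Il1b at -0.38. Irf1 was singled out after its values were seen, and a link between it and Gch1 was not tested.

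**Figure D3:**
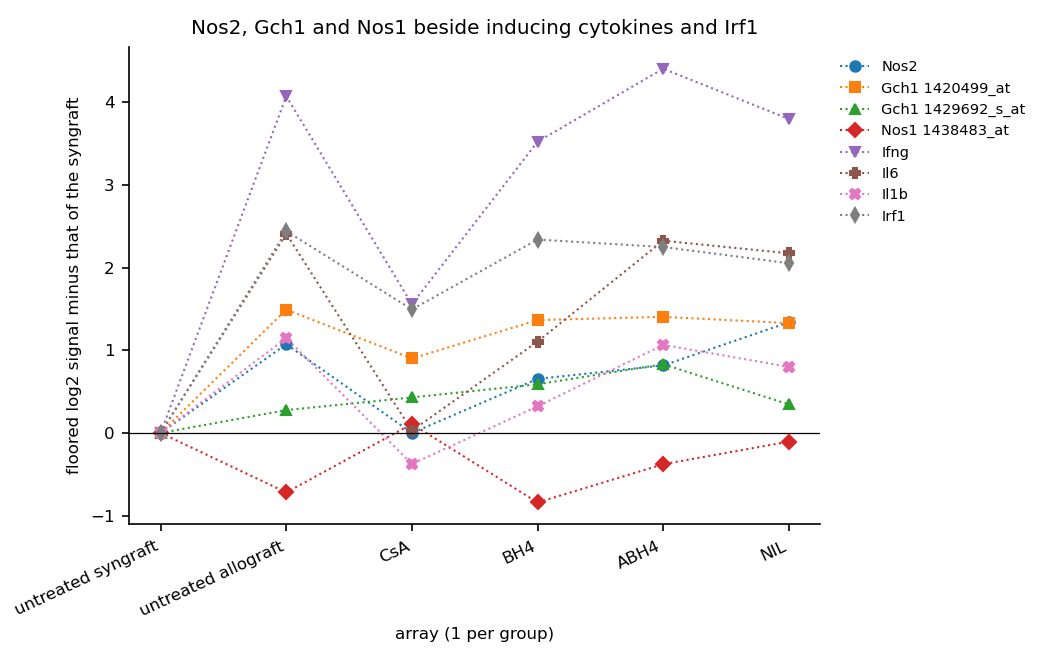
Floored log2 signal relative to the syngraft for Nos2, the 2 Gch1 probe sets and Nos1 beside Ifng, Il6, Il1b and Irf1 on the 6 arrays (1 point per gene and array; dotted lines only join points of a gene). On the CsA array Gch1 1420499_at is at 0.90, Irf1 at 1.49, Ifng at 1.56, Il6 at 0.03 and Il1b at -0.38. Nos1 lies below 0 in the untreated allograft. Nos2 is at 0 with CsA because it is at the floor both there and in the syngraft.

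Macrophage markers, which include the cells best known for Nos2, moved with these values only in part. Of 10 measured, 5 were higher and 0 lower in the untreated allograft than in the syngraft (median 0.84), and 5 were lower with CsA (median -0.54). Without rescaling the medians of these markers were 0.65 and -0.35, and with quantile normalization 0.56 and -0.29. Their summed signal was 9187 in the syngraft, 11349 in the untreated allograft, 9473 with CsA, 13951 with BH4, 12184 with ABH4 and 12757 with NIL, and none was at the floor on any array. The sum was highest with BH4, where Nos2 was the lowest of the arrays on which it was measurable. A sum rests most on the brightest genes. By count, 0 of 10 macrophage markers were higher with BH4 than in the untreated allograft and 1 was lower (median 0.27). Over all genes, 4.89% were higher and 3.36% lower with BH4. The T cell markers were higher in 6 of 7 in the allograft (median 2.32) and lower in 6 of 7 with CsA (median -2.03). All 7 were at the floor in the syngraft and 5 of them with CsA, so most of these differences are lower bounds. Cd4 was at the floor on every array. Beside both marker lists, 15.4% of all genes were higher and 11.9% lower in the allograft than in the syngraft. With CsA, 9.27% were higher and 12.2% lower than in the untreated allograft. The part of either cell type in the Nos2 and Gch1 values was not tested.

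Genes that supply arginine to the synthases or compete for it were higher in 5 of 9 and lower in 0 in the untreated allograft (median 0.61), against 15.4% of all genes higher and 11.9% lower. Arginase 1 (Arg1), which splits arginine into ornithine and urea, was at least 24.8-fold higher and Gatm, which uses arginine for creatine synthesis, 3.69-fold. With CsA 4 of 9 were lower and 0 higher (median -0.54), against 12.2% and 9.27% of all genes, led by Arg1 (2.66-fold) and Gatm (2.39-fold). The list medians of 0.61 and -0.54 were 0.42 and -0.35 without rescaling, and 0.33 and -0.49 with quantile normalization. Slc7a2, an arginine transporter, was 2.48-fold higher with ABH4 and 2.12-fold higher with NIL than in the untreated allograft, with signals of 120 and 103 against 48.3. With BH4 its signal was 69.4, with CsA 42.0 and in the syngraft 59.0. ABH4 was 1.73-fold above BH4. These values rest on the brightest of 3 Slc7a2 probe sets: 1 was at the floor on all 6 arrays, and the other was above it only with CsA (54.1), BH4 (44.8) and ABH4 (43.2), an order that the brightest did not share. Arg2, the mitochondrial arginase, was 1.56-fold higher with ABH4 and 1.93-fold with NIL. Argininosuccinate lyase (Asl), which remakes arginine from citrulline, was 1.89-fold lower with NIL, named after its value was seen.

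Among enzymes that set the level of methylated arginines, natural synthase inhibitors, Ddah2, which degrades them, had signals of 441 in the syngraft and 106 in the untreated allograft, 4.16-fold lower. With CsA it was 294, 2.78-fold above the untreated allograft. Prmt1, the main arginine methyltransferase, was 1.95-fold higher in the allograft and 1.62-fold lower with CsA. Of 5 measured genes of this list, 2 were higher and 1 lower in the allograft (median 0.16, or -0.03 on the deposited values). Of all genes, 15.4% were higher and 11.9% lower there. All 5 stayed within 1.5-fold with BH4, ABH4 and NIL. Of 6 measured binding partners, 1 was higher and 1 lower in the allograft, near those shares of all genes. The median was 0.14, or -0.04 without rescaling and -0.07 with quantile normalization. The partners that passed were the caveolins: Cav3, the muscle form, was 2.58-fold higher and Cav1, which holds Nos3 inactive in endothelium, 2.05-fold lower. With CsA Cav3 was 1.90-fold and the synthase-interacting protein Nosip 1.53-fold below the untreated allograft. With NIL the chaperone Hsp90aa1 was 1.66-fold lower.

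Downstream, 4 of 8 genes of the nitric oxide receptor and cyclic GMP pathway were lower and 1 higher in the untreated allograft than in the syngraft (median -0.73), against 11.9% and 15.4% of all genes. Pde2a, a cyclic GMP-stimulated phosphodiesterase, was 3.02-fold lower and Gucy1a1, the alpha subunit of the receptor guanylate cyclase, 2.82-fold lower. The beta subunit Gucy1b1 was 1.93-fold lower, named after its value was seen. Of the 8 genes, Pde1c was at the floor on every array. Prkg1 was at the floor in the untreated allograft, so its difference from the syngraft is a lower bound. The summed signal of the 8 went the other way, with 1351 in the syngraft and 1636 in the untreated allograft. With CsA 4 of 8 were higher and 1 lower (median 0.52), against 9.27% and 12.2% of all genes, with Gucy1a1 2.43-fold and Gucy1b1 2.15-fold higher. Gucy1a1 was also 1.76-fold above the untreated allograft with NIL, and Pde2a 1.64-fold with BH4. Pde1a, a calmodulin-dependent phosphodiesterase, was at least 1.51-fold lower with BH4 and with ABH4. Gucy1a1 had signals of 102 in the syngraft, 36.1 in the untreated allograft, 87.6 with CsA, 49.6 with BH4, 48.3 with ABH4 and 63.7 with NIL. The syngraft and CsA arrays were thus highest, and the untreated allograft was lowest. Its 36.1 is just above the floor of 34.8, so each Gucy1a1 fold against the untreated allograft rests on a signal near the floor.

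Of 6 other pterin enzymes, 0 passed 1.5-fold in the allograft and CsA comparisons (medians -0.01 and -0.01, the latter 0.18 without rescaling and 0.09 with quantile normalization). Carbonyl reductase Cbr1, which can stand in for sepiapterin reductase, was 1.55-fold higher with BH4 and 1.69-fold with ABH4, and the molybdopterin gene Mocs1 1.90-fold higher with NIL. Tyrosine hydroxylase (Th), a neuronal user of the same cofactor, was 2.35-fold below the syngraft in the untreated allograft and 1.60-fold above the untreated allograft with CsA. Its signals were 112 in the syngraft, 47.6 in the untreated allograft and 76.1 with CsA. Over all 43 measured genes of the 7 lists, 15 were higher and 7 lower in the allograft, against 15.4% and 11.9% of all genes. With CsA 6 were higher and 13 lower, against 9.27% and 12.2%. With BH4 2 were higher and 4 lower (4.89% and 3.36% of all genes), with ABH4 3 and 1 (3.19% and 2.49%) and with NIL 4 and 2 (6.36% and 5.32%). The last 3 comparisons rest on 1 to 4 genes in each direction. Between ABH4 and BH4 4 were higher and 0 lower, against 3.24% and 4.10%.

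**Figure D4:**
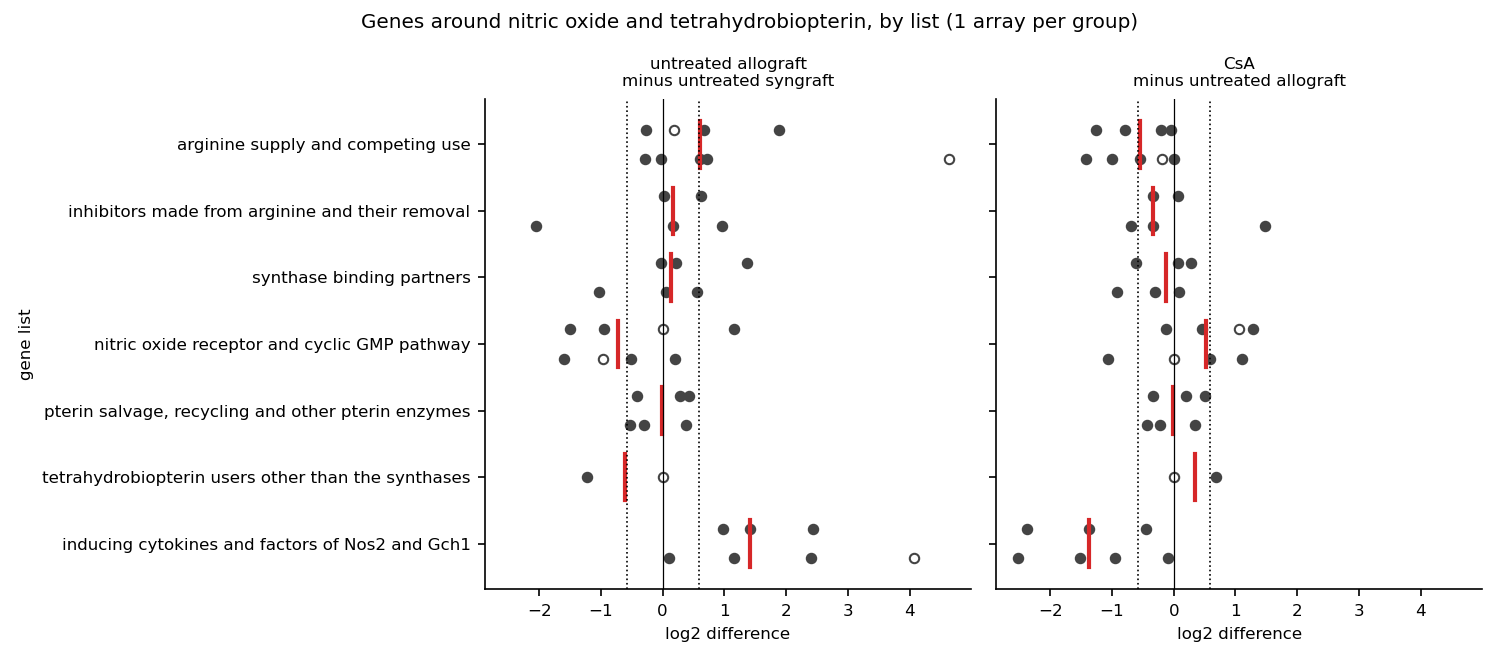
Log2 difference of each measured gene in the 7 lists (points, open where an array is at the floor) with the list's median (red bar), for untreated allograft against syngraft and CsA against untreated allograft; dotted lines mark 1.5-fold. The inducers lie mostly to the right in the former (median 1.41) and to the left in the latter (median -1.36), and the nitric oxide receptor list has medians of -0.73 and 0.52.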

How the data were processed

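The values deposited by the authors were linear signal intensities for 22690 probe sets on 6 arrays, 1 per group, as judged from the deposited values. Their mean after trimming 2% from each end was the same on every array. The summarisation software was not given in the sources used here. Each array was rescaled to the mean of the 6 medians over 22626 probe sets other than controls, floored at the 30th percentile (34.8) and put on the log2 scale. Probe sets with exactly 1 gene symbol (20380, for 12393 genes) were used; 691 had several symbols and 1555 none. All member probe sets are reported; elsewhere a gene took its brightest probe set. Of 63 genes in 7 pathway lists, 43 were measured, and the 2 furthest of each list past 1.5-fold were named per comparison, with the 3 genes most like a member. The members, lists and rules were chosen with earlier results of these data known; the motifs searched were chosen after the values were seen. No test was made, and the number of arrays limits the precision. The difference procedure was tested on simulated data. Alternatives were no rescaling, quantile normalization, floors at the 10th and 50th percentiles and, for medians, the mean over probe sets. Python 3.11.15, numpy 2.4.6 and pandas 2.3.3 were used.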

Additional observations from a re-analysis of the deposited data

How the results depend on the processing

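A count was taken as moved when it changed by over 1.5 times, and a log2 value when it changed by over 0.58. No called difference of a member reversed under the alternatives run (no rescaling, quantile normalization, a lower and a higher floor). Signs of differences short of 1.5-fold changed in 6 of 66 without rescaling and in 7 of 66 after quantile normalization. With the floor at the 10th percentile, 11 of 66 differences moved, and with the floor at the 50th percentile 5 did, since Nos1, Nos2 and Pcbd1 lie near the floor. For allograft against syngraft, the 2 higher probe sets became 1 with the floor at the 50th percentile; the 1 lower became 0 with quantile normalization, 2 with the floor at the 10th and 0 at the 50th. For CsA, the 1 higher became 2 without rescaling, 3 with the floor at the 10th and 0 at the 50th; the 2 lower became 1 without rescaling, with quantile normalization and with the floor at the 50th. With the floor at the 10th percentile, higher counts became 2 for BH4, 1 for ABH4 and 3 for NIL, and ABH4 against BH4 had 1 higher and 1 lower. Without rescaling ABH4 had 1 higher, and for NIL the 1 higher became 0 with quantile normalization and with the floor at the 50th. The medians over member and pathway genes moved by less than 0.58 throughout; for NIL the pathway median of -0.06 was 0.08 without rescaling and 0.07 after quantile normalization, and the member median of 0.06 was -0.01 with the floor at the 50th. Signal near the floor limits Nos1, Nos2, Pcbd1 and the dimmer Gch1 probe set. No paired analysis was possible because each group has 1 array.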
